A study of Mus musculus with 8 samples.

Results

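The genes described here encode 9 transporters of organic ions, bile constituents and drugs in the liver, Slco1a1, Slco1a4, Slco1b2, Slco2b1, Slc22a7, Abcc2, Abcb4, Abcg2 and Abcc3, out of 56884 genes counted. They were chosen by gene symbol, for their known place at the sinusoidal or canalicular face of the hepatocyte. The choice was made with earlier results of these data known. Each symbol was matched to its Ensembl identifier. Liver RNA was sequenced from 8 aged obese female C57BL/6J mice, with 1 library per mouse, to compare a diet-induced obese group (DIO, n = 3) with a diet-induced obese group given docosahexaenoic acid (DIO + DHA, n = 5). At 2 months of age all mice were put on a high-fat diet in which lipid supplied 45% of the energy. After 4 months on it, the DIO group stayed on that diet until 18 months of age, while in the DIO + DHA group 15% by weight of the dietary lipid was replaced by a fish oil concentrate with 683.4 mg DHA and 46.7 mg EPA per g. In total the concentrate held 838.9 mg of n-3 polyunsaturated fatty acids per g. The replacement therefore added DHA, EPA and other n-3 fatty acids and removed part of the saturated fat at once. Tocopherols were given to both groups, and all mice were fasted overnight before the liver was taken. A lean or younger group was not analysed here. The mice were housed in groups, and the cage of each is not given in the sources used here.

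Hepatocytes take up organic anions, cations, bile acids and drugs from sinusoidal blood through solute carriers (Slco and Slc22 families among them), modify them, and export them with ATP-binding cassette (Abc) pumps, either across the canalicular membrane into bile or across the basolateral membrane back into blood. Canalicular export also shapes bile itself: phosphatidylcholine moved by Abcb4 packs bile salts into mixed micelles that protect the bile duct epithelium. Many of these genes are known targets of nuclear receptors that sense bile acids, fatty acids and xenobiotics.

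Of the 9 transporters, 2 canalicular exporters rose in the DIO + DHA group and 2 others fell. Among all 12412 genes tested, 7.89% rose and 7.28% fell. Abcb4, the phosphatidylcholine translocator, was 1.46-fold and Abcg2, an exporter of urate, sulfated conjugates and drugs, 1.57-fold of the DIO level. Abcc2, the canalicular pump for bilirubin glucuronides and glutathione conjugates, was at 0.843 and Slco1b2, a sinusoidal carrier of bilirubin conjugates, bile acids and statins, at 0.880 of the DIO level. The rises of Abcb4 and Abcg2 passed the test in all 19 other settings, while Abcc2 and Slco1b2 each failed it in 9 of them. The other 5, Slco1a1, Slco1a4, Slco2b1, Slc22a7 and Abcc3, did not pass the test. All 9 passed the filter on low counts.

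The regions upstream of the genes that rose and of those that fell are shown here because the members moved in opposite directions. Each is the 250 bases before a RefSeq transcription start, 5′ to 3′ on the gene's strand, from the RefSeq promoter table and placed in GRCm39 by exact match. Capitals mark, on either strand, the nuclear receptor core AGGTCA, the HNF1 core GTTAAT and the xenobiotic response core GCGTG.
Abcb4, chr5:8943471-8943720, + strand: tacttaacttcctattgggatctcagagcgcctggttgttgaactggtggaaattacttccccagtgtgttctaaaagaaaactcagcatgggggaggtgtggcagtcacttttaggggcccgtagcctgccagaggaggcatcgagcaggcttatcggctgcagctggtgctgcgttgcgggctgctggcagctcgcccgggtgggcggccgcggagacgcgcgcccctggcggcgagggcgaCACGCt
Abcg2, chr6:58617281-58617530, + strand: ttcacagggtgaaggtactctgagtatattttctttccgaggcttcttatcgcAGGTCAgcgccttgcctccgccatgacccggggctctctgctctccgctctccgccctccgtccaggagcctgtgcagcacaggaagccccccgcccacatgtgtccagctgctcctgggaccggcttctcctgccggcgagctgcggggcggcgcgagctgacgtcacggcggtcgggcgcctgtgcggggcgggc
Slco1b2, chr6:141574994-141575243, + strand: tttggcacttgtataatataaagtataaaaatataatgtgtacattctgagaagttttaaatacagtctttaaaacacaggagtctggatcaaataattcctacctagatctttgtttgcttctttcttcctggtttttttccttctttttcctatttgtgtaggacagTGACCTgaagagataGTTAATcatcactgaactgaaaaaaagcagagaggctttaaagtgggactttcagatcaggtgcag
Abcc2, chr19:43770497-43770746, + strand: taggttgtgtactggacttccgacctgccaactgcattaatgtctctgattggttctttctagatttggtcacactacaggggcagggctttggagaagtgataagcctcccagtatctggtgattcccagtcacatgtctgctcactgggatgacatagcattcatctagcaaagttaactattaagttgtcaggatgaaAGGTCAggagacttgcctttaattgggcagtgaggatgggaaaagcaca

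Among the promoters shown, those of the genes that rose were the richer in G and C. They held 61.6% for Abcb4 and 67.6% for Abcg2, against 33.6% for Slco1b2 and 45.6% for Abcc2. Among genes that did not pass, Slco1a1 held 40.4%, Slco1a4 39.2% and the promoters of Slco2b1 52.8% to 58%. The share over all promoters was not measured, and a link to direction was not tested. The core AGGTCA, bound by PPAR, RXR and related receptors, began at -197 in Abcg2, -81 in Slco1b2 (on the opposite strand) and -49 in Abcc2, counted from the base just before the start, and its letters were not in the Abcb4 window. It occurs in 14.0% of the 32851 RefSeq promoters cut to the same length. The HNF1 core, found in 6.43% of them, began at -66 in Slco1b2, and the GCGTG core, found in 28.2%, at -6 in Abcb4 on the opposite strand. Also searched were TATAAA (12.4% of promoters), found 2 times in Slco1b2, CCAAT (33.9%), found at -237 in Abcb4 and 2 times in Abcc2, and the antioxidant response core TGANNNNGC (35.2%), found at -98 in Abcc2. No match overlapped another in these windows. Abcg2 has 3 RefSeq promoters, of which the most downstream is shown (the other two held 51.2% and 50% G and C), and which of them the livers used was not measured. Of those not shown, the most upstream held AGGTCA 2 times and TGANNNNGC at -84, and the middle one held none of the 6 motifs. The table held promoters for 7 of the 9 genes, not for Slc22a7 and Abcc3.

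Levels are given in CPM, counts scaled to a common library size, after TMM normalization. Reads came mostly from 3′ ends and were not divided by length, so levels are compared between libraries and not between genes. A gene was called when edgeR's quasi-likelihood test gave a Benjamini-Hochberg adjusted p under 0.05, and log2 fold changes are those of DIO + DHA over DIO. Over all 12412 genes tested, 15.2% were called, 7.89% higher and 7.28% lower in DIO + DHA, and the 2 groups did not overlap in 18.4%. Against this background, 2 of the 9 transporters were called higher, 2 were called lower, and the groups did not overlap in 5. The median log2 fold change was 0.05 over the 9 transporters and 0.00 over all genes tested, with 5 transporters above 0 and 4 below. Slco1a1, 1 of the 5, passed the filter on low counts through the DIO + DHA group alone. Called genes of the whole table had a median absolute log2 fold change of 0.63, so the values of Abcc2 and Slco1b2 were small among them and those of Abcb4 and Abcg2 were near the middle.

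**Figure D1:**
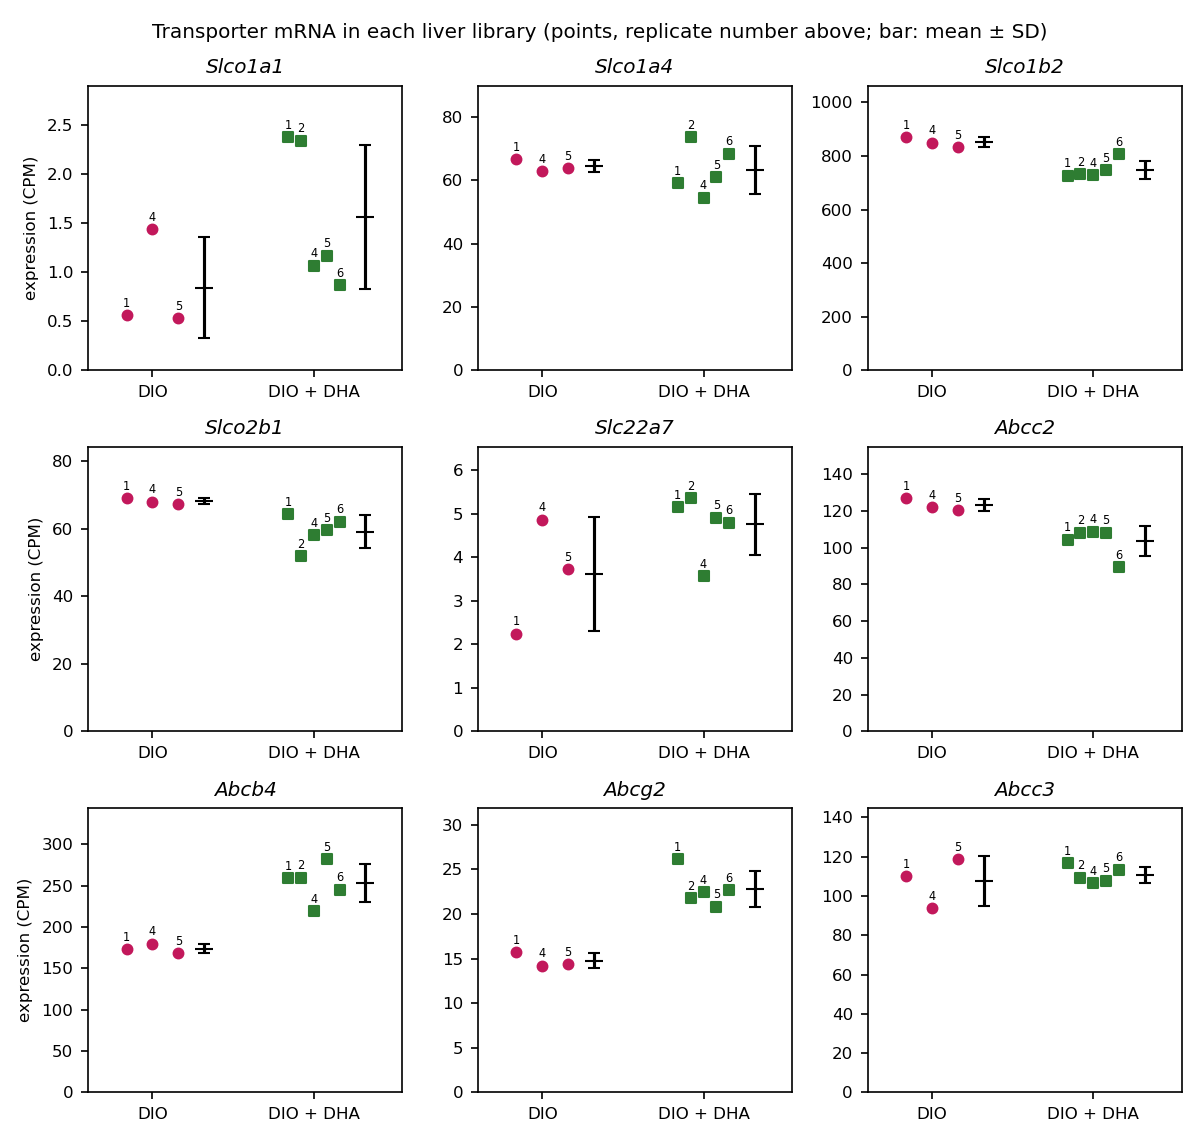
Expression of the 9 transporters (CPM, linear axes from 0) in each of the 3 DIO and 5 DIO + DHA libraries. Each point is 1 mouse with its replicate number above it, and bars give the mean ± SD. Abcb4 and Abcg2 lie higher in every DIO + DHA library, and Slco1b2, Slco2b1 and Abcc2 lie lower.

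The libraries held 1723800 to 5690347 counts, with DIO replicate 1 the shallowest. The sample details used here give no batch. Because these are pieces of whole liver, fewer cells of a type and less RNA per cell cannot be told apart. Hepatocyte markers (10 genes, Alb and Ttr among them, all tested, 2 higher and 3 lower) summed to 81514 to 86927 CPM in DIO and 84329 to 98846 CPM in DIO + DHA (exact permutation test, two-sided, p = 0.107). Lower sums were found in DIO + DHA for markers of Kupffer cells and macrophages (617 to 700 against 342 to 379 CPM, 8 of 10 genes lower and 1 higher), T cells (135 to 152 against 46.0 to 53.8 CPM, 6 of 8 tested lower), sinusoidal endothelium (239 to 262 against 180 to 208 CPM, 2 of 10 lower) and stellate cells (478 to 516 against 443 to 466 CPM, 2 of 10 lower and 1 higher). Skeletal muscle genes were higher, at 1487 to 1592 CPM in DIO + DHA against 43.2 to 48.6 CPM in DIO, with 20 of 20 called. So were genes of squamous epithelium, at 56.5 to 63.0 against 4.25 to 7.29 CPM, with 5 of 6 tested called. These 5 passed the filter on low counts through the DIO + DHA group alone, as did muscle genes such as Mb, Trim63 and Casq1. The number of calls among such genes is therefore not separate support for a rise. Krt10, the squamous gene tested but not called, was at 5.65 CPM in DIO and 6.54 CPM in DIO + DHA. For each of these 6 sums the exact two-sided permutation p was 0.0179, the smallest that 3 against 5 libraries can give. In all of them the groups did not overlap. The lists were chosen with earlier results of these data known, so these p-values describe the separation and are not independent support for it. Cholangiocyte markers overlapped, at 65.3 to 72.9 CPM in DIO and 66.1 to 82.2 CPM in DIO + DHA (exact permutation p = 0.25), with 1 of 6 tested genes higher, Sox9, and a median log2 fold change of 0.60. Most of that sum was Spp1, at 54.4 of a mean 68.5 CPM in DIO and 52.5 of 73.6 CPM in DIO + DHA. The overlap therefore describes mainly Spp1, and the sum without it was not tested. The part of any of these cell types in the transporter results was not tested. With normalization factors taken from the genes outside the muscle and squamous lists, the same 2 transporters were called higher and the same 2 lower.

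Among the sinusoidal uptake carriers, Slco1b2 (ENSMUSG00000030236.11, GRCm39 chr6:141575244-141632372, plus strand) was the one that passed the test, though not in every setting. Its level was 870, 850 and 833 CPM in DIO replicates 1, 4 and 5. In DIO + DHA replicates 1, 2, 4, 5 and 6 it was 727, 732, 728, 746 and 808 CPM. Every DIO + DHA library was below every DIO library, and replicate 6 came closest to them. The group means were 851 ± 18.2 (SD, n = 3) and 748 ± 34.1 CPM (SD, n = 5). Its log2 fold change was -0.18 ± 0.063 (SE), with a 95% interval from -0.31 to -0.06 and an adjusted p of 0.0365 (edgeR's quasi-likelihood test), rank 1746 by p among the genes tested. The call was lost when DIO replicate 1, 4 or 5 was left out (adjusted p = 0.142, 0.131 and 0.0652) and when DIO + DHA replicate 1, 2 or 4 was left out (adjusted p = 0.0947, 0.0662 and 0.0665). Without DIO + DHA replicate 6 the log2 fold change was -0.22 and the adjusted p 0.00900.

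Slco1a4 and Slco1a1 lie beside Slco1b2 on chromosome 6, on the minus strand, and encode carriers of bile acids, steroid conjugates and drugs. Slco1a4 (ENSMUSG00000030237.15, chr6:141751166-141801925) was at 66.8, 63.0 and 63.9 CPM in the DIO libraries and at 59.2, 73.6, 54.5, 61.0 and 68.4 CPM in the DIO + DHA libraries. Its groups overlapped on both sides, with a log2 fold change of -0.02 (95% interval -0.21 to 0.17, adjusted p = 0.930, edgeR). Slco1a1 (ENSMUSG00000041698.12, chr6:141853008-141892688), known to be the male-predominant member in mouse liver, was close to the limit of detection in these females, with 1, 8 and 3 counts in the DIO libraries and 12, 7, 3, 5 and 4 counts in the DIO + DHA libraries. That is 0.844 ± 0.516 CPM (SD, n = 3) and 1.56 ± 0.732 CPM (SD, n = 5), and the log2 fold change of 0.75 had a 95% interval from -0.32 to 1.82 (adjusted p = 0.410, edgeR), so a change in either direction was not detectable at this depth. The value was 1.495 without DIO replicate 4, 0.39 without DIO replicate 5 and 0.49 without DIO + DHA replicate 1. The neighbouring paralogs Slco1a5 and Slco1a6 had 0 counts in all 8 libraries and Slco1c1 at most 1 count in a library. Of all 80-base windows in the transcripts of Slco1a1 and Slco1a4, 1.36% and 1.57% also occur in another Slco1a gene, and 0% of those in the last 1000 bases.

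Slco2b1 and Slc22a7, which carry steroid sulfates and organic anions into the cell, did not pass. Slco2b1 (ENSMUSG00000030737.18, chr7:99307011-99360547, minus strand) was at 69.0, 68.0 and 67.3 CPM in DIO and at 64.3, 51.8, 58.0, 59.6 and 62.1 CPM in DIO + DHA. All DIO + DHA libraries were below all DIO libraries, but the spread among them was wider, at 4.76 CPM (SD, n = 5) against 0.869 CPM (SD, n = 3). The log2 fold change was -0.19 (95% interval -0.38 to -0.00), with an adjusted p of 0.186 in edgeR's test. The antisense genes Gm15635 and Gm34280 cover 9.21% of its exon bases. The counting used no option for strand or overlap, so reads on those shared bases cannot be placed on 1 gene. Slc22a7 (ENSMUSG00000067144.8, chr17:46743109-46749383, minus strand) had 4 to 27 counts a library. Its level was 3.61 ± 1.31 CPM (SD, n = 3) in DIO and 4.75 ± 0.700 CPM (SD, n = 5) in DIO + DHA. The groups overlapped, and the log2 fold change of 0.28 had a 95% interval from -0.28 to 0.84 (adjusted p = 0.595, edgeR), with values of 0.17 without DIO replicate 1 and 0.54 without DIO replicate 4.

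Abcc3 (ENSMUSG00000020865.17, chr11:94234121-94283823, minus strand), the basolateral exporter that returns glucuronides to blood, was at 110, 93.7 and 119 CPM in the DIO libraries. In the DIO + DHA libraries it was at 117, 109, 106, 108 and 113 CPM. Here the DIO libraries were the more spread and enclosed all the DIO + DHA values. The log2 fold change was 0.05, and its 95% interval from -0.12 to 0.22 bounds the change on either side (adjusted p = 0.789, edgeR).

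Of the canalicular exporters, Abcb4 (ENSMUSG00000042476.13, chr5:8943717-9009231, plus strand) changed with the smallest p of the 9 transporters. It was at 173, 180 and 169 CPM in DIO replicates 1, 4 and 5. In DIO + DHA replicates 1, 2, 4, 5 and 6 it was at 259, 260, 219, 282 and 245 CPM. Even the lowest DIO + DHA library was well above the highest DIO library. The means were 174 ± 5.66 (SD, n = 3) and 253 ± 23.1 CPM (SD, n = 5), with a log2 fold change of 0.54 ± 0.077 (SE), a 95% interval from 0.39 to 0.70 and an adjusted p of 1.5e-07 in edgeR's quasi-likelihood test, rank 304 of the genes tested. The call was kept in all 19 other settings, with log2 fold changes of 0.50 to 0.58. Abcb4 shares 1.11% of its 80-base windows with Abcb1a and Abcb1b, the drug-exporting P-glycoprotein genes, and 2.06% of those in its last 1000 bases. Abcb1a itself was counted at 1.68 to 3.96 CPM in DIO and at 1.42 to 6.32 CPM in DIO + DHA, and did not pass.

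Abcg2 (ENSMUSG00000029802.14, chr6:58561508-58672661, plus strand) was the other exporter that rose, from a lower count. It was at 15.7, 14.2 and 14.3 CPM in the DIO libraries, or 28 to 81 reads. In the DIO + DHA libraries it was at 26.1, 21.7, 22.4, 20.8 and 22.7 CPM, or 63 to 132 reads. The groups did not overlap, and DIO + DHA replicate 1 was the highest. The means were 14.8 ± 0.830 (SD, n = 3) and 22.8 ± 2.02 CPM (SD, n = 5), with a log2 fold change of 0.65 ± 0.15 (SE), a 95% interval from 0.36 to 0.95 and an adjusted p of 0.00077 in edgeR's test. Its call also held in all 19 other settings, the highest adjusted p among them being 0.0104, with log2 fold changes of 0.59 to 0.68.

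Abcc2 (ENSMUSG00000025194.6, chr19:43770631-43829179, plus strand) was the canalicular exporter that fell. Its level was 127, 122 and 120 CPM in DIO. In DIO + DHA replicates 1, 2, 4, 5 and 6 it was 104, 108, 109, 108 and 89.3 CPM. The values of replicates 1, 2, 4 and 5 lay close together, with replicate 6 well below them, and all of them were under the DIO libraries. Group means were 123 ± 3.34 (SD, n = 3) and 104 ± 8.21 CPM (SD, n = 5). The log2 fold change was -0.25 ± 0.082 (SE), with a 95% interval from -0.41 to -0.08 and an adjusted p of 0.0310 in edgeR's test, rank 1658. The call was lost without DIO replicate 1, 4 or 5 (adjusted p = 0.0947, 0.109 and 0.0756) and without DIO + DHA replicate 1 or 6 (adjusted p = 0.0555 and 0.0882), and also in DESeq2's Wald test (adjusted p = 0.0771).

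The ratios of 1 canalicular exporter to another differed between the groups. Each library's log2 ratio of Abcb4 to Abcc2 was 0.45 to 0.56 in DIO and 1.01 to 1.45 in DIO + DHA. For Abcg2 to Abcc2 it was -3.10 to -3.01 in DIO and -2.38 to -1.98 in DIO + DHA. These ratios do not depend on how the libraries were scaled, and they follow from the fold changes above. Against Abcb11, the bile salt export pump, the log2 ratio of Abcb4 was 0.63 to 0.86 in DIO and 0.86 to 1.46 in DIO + DHA, so the groups overlapped slightly.

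**Figure D2:**
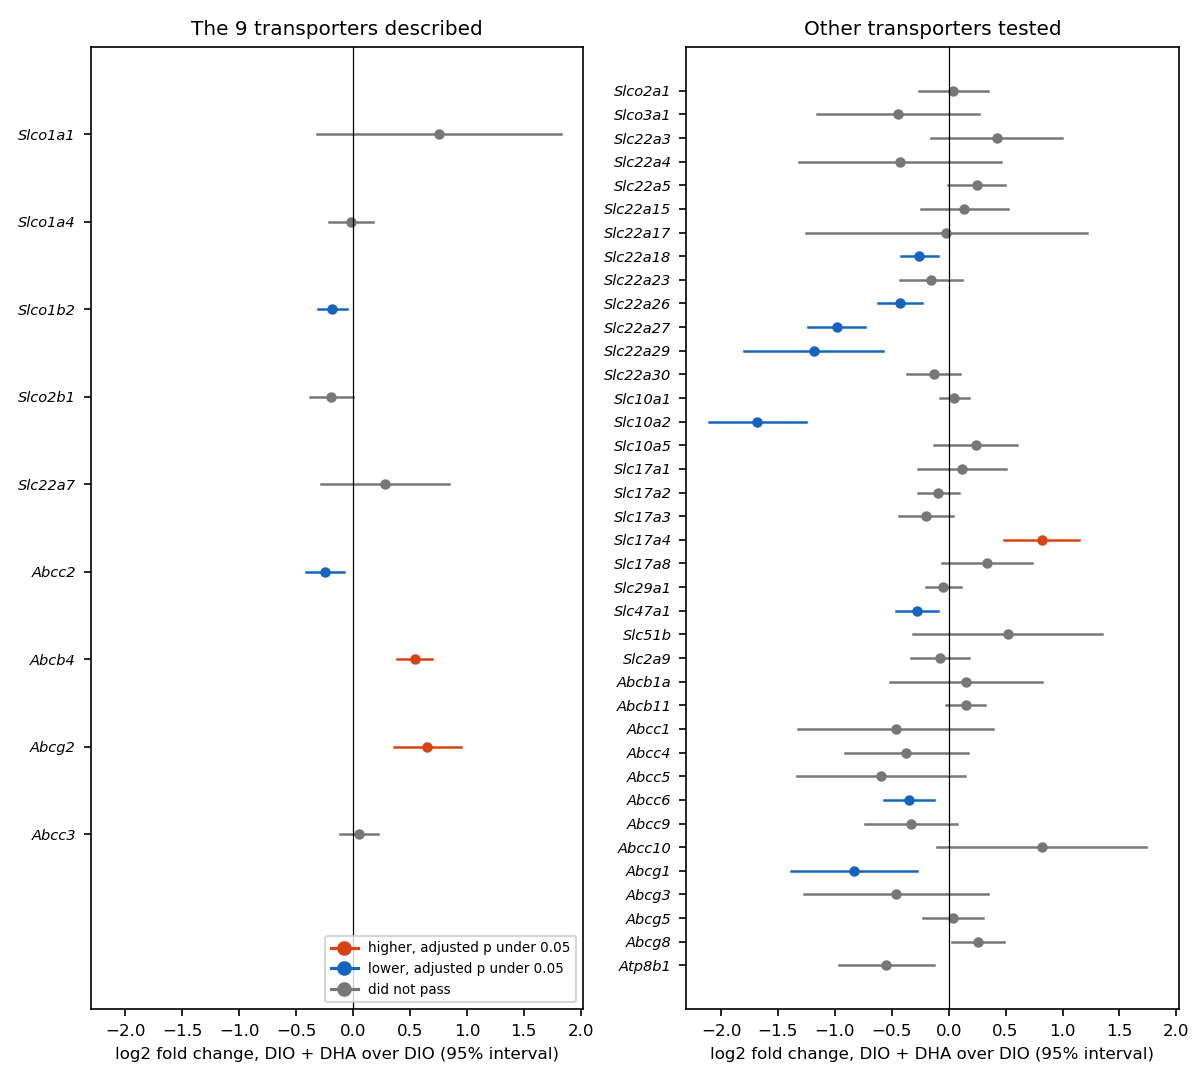
Log2 fold change of DIO + DHA over DIO with its 95% interval for the 9 transporters (left) and 38 of the 39 other transporters tested (right). Orange and blue mark genes with an adjusted p under 0.05 and grey the rest. Abcb4 and Abcg2 are the called genes on the right of 0 at left, while among the other transporters 8 called genes lie below 0 and 1 lies above it.

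Of 56 other transporters listed for comparison, 39 were tested, 1 rose and 8 fell, with a median log2 fold change of -0.09. The called share was 23.1% of those tested, against 15.2% of all genes tested. Among 24 other Slco and Slc22 carriers, 14 were tested, 0 rose and 4 fell (median -0.14). Slc22a27 was at 38.6 CPM in DIO and 19.8 CPM in DIO + DHA (log2 fold change -0.98, adjusted p = 8.5e-09, edgeR), Slc22a29 at 5.68 and 2.45 CPM (-1.19, adjusted p = 0.0033) and Slc22a26 at 71.3 and 52.3 CPM (-0.43, adjusted p = 0.00081). These 3 are related organic anion carriers of 1 gene cluster, and since sequence shared between them was not measured, each value is uncertain. Not all of the cluster fell. Slc22a30, named after its value was seen, was at 36.3 and 33.1 CPM (-0.13, adjusted p = 0.530, edgeR), and Slc22a28 did not pass the filter on low counts. Slc22a18, an organic cation carrier, was at 126 and 107 CPM (-0.26, adjusted p = 0.0217, edgeR), a call that was lost without DIO replicate 4, DIO replicate 5 or DIO + DHA replicate 2 (adjusted p = 0.0517 to 0.264).

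Among 16 further carriers of organic ions and bile acids, 12 were tested, 1 rose and 2 fell (median 0.00). For all genes tested the shares were 7.89% and 7.28%. Slc10a2, the sodium-dependent bile acid carrier best known from ileum and cholangiocytes, fell from 14.3 to 16.9 CPM in DIO to 2.61 to 6.69 CPM in DIO + DHA (-1.68, adjusted p = 6.4e-09, edgeR). Slc17a4, an organic anion and urate carrier, rose from 12.2 to 20.8 CPM (0.82, adjusted p = 0.00013, edgeR). Slc47a1, which exports organic cations into bile, was at 67.5 and 55.8 CPM (-0.28, adjusted p = 0.0316, edgeR), but did not pass without DIO replicate 1, 4 or 5 or DIO + DHA replicate 2 or 5 (adjusted p = 0.0508 to 0.177). The sinusoidal bile acid carrier Slc10a1 was at 705 and 730 CPM (0.05, adjusted p = 0.702, edgeR).

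Of 16 other Abcb, Abcc and Abcg exporters and partners, 13 were tested, 0 rose and 2 fell (median -0.35). Over all genes tested, 7.89% rose and 7.28% fell. Abcc6, a basolateral pump that supports ATP release from hepatocytes, was at 48.2 CPM in DIO and 38.0 CPM in DIO + DHA (-0.35, adjusted p = 0.0178, edgeR), and lost its call without DIO replicate 5 or DIO + DHA replicate 6 (adjusted p = 0.0519 to 0.143). Abcg1, a sterol exporter also made by macrophages, was at 5.66 and 3.23 CPM (-0.84, adjusted p = 0.0288, edgeR), and lost its call without DIO replicate 5 or DIO + DHA replicate 1 or 4 (adjusted p = 0.0583 to 0.386). The macrophage marker sum, lower in DIO + DHA as given above, moved with Abcg1, and its part in that value was not tested. Abcb11 was at 106 and 119 CPM (0.15, 95% interval -0.02 to 0.32, adjusted p = 0.282, edgeR).

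**Figure D3:**
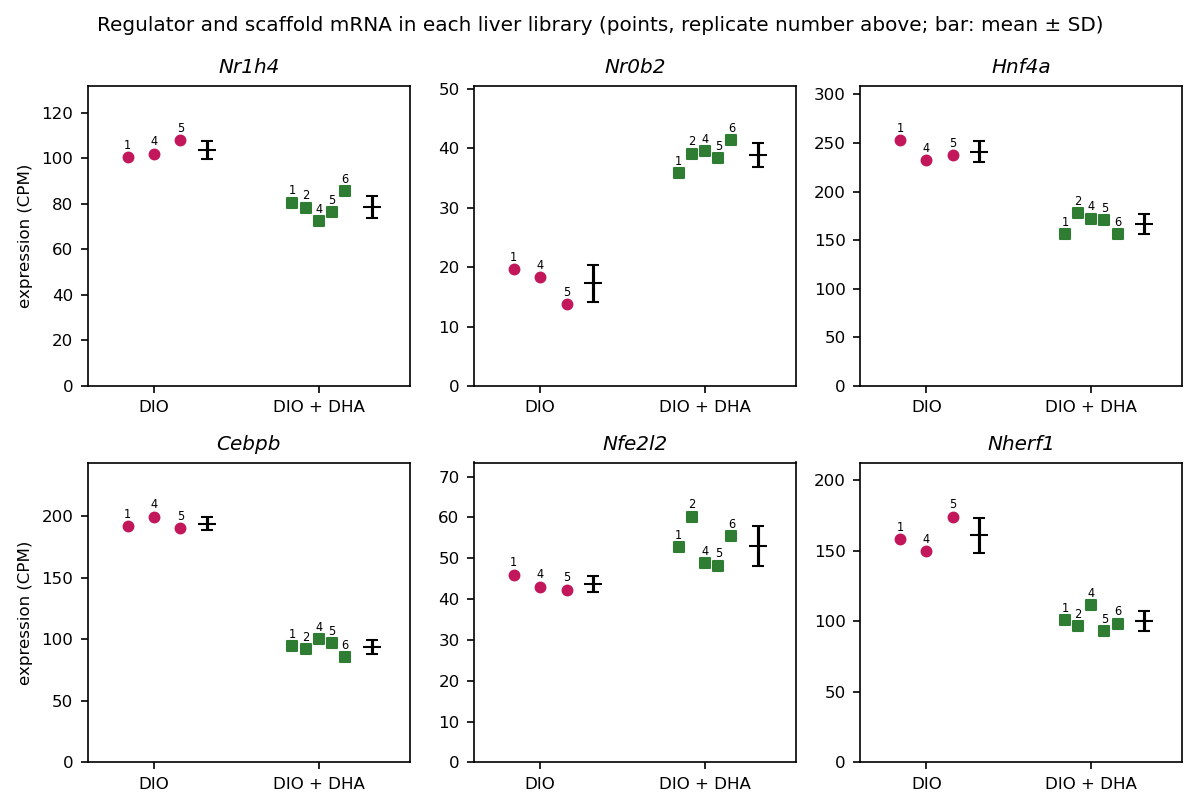
Expression (CPM, linear axes from 0) of 5 transcriptional regulators and of the scaffold Nherf1 in each library, with points for single mice, replicate numbers above them and bars for the mean ± SD. Nr0b2 lies higher and Nr1h4, Hnf4a, Cebpb and Nherf1 lie lower in every DIO + DHA library, while the Nfe2l2 groups come close to each other.

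All 26 listed regulators known to act on transporter genes were tested, of which 3 rose and 6 fell (median -0.03). Among all genes tested, 7.89% rose and 7.28% fell. Nr1h4 (FXR), the bile acid receptor known to activate several canalicular exporter genes, was at 100 to 108 CPM in DIO and 72.3 to 85.6 CPM in DIO + DHA (log2 fold change -0.40, adjusted p = 0.00032, edgeR). Nr0b2 (SHP), a repressor that is itself a target of that receptor, was at 13.8 to 19.6 and 35.8 to 41.4 CPM (1.21, adjusted p = 9.0e-11, edgeR). The receptor and its target thus moved in opposite directions. Hnf4a, which maintains hepatocyte gene expression, was at 241 and 167 CPM (-0.53, adjusted p = 7.3e-08, edgeR), and Cebpb, a factor of the acute phase and of differentiation, at 194 and 93.9 CPM (-1.05, adjusted p = 5.4e-17, edgeR). Of the exon bases of Cebpb, 20.7% are shared with Peds1 on the opposite strand. Cux2, a repressor known to be female-predominant in mouse liver, was at 12.3 and 3.65 CPM (-1.60 on the log2 scale, adjusted p = 1.2e-06, edgeR).

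Calls of other regulators were lost when single libraries were left out. Foxa1, a pioneer factor, was at 3.27 and 6.18 CPM (0.98, adjusted p = 0.0094, edgeR), and did not pass without DIO replicate 4 (adjusted p = 0.0897). Nfe2l2 (NRF2), which responds to oxidants and is known to activate Abcc2, Abcc3 and Abcg2, was at 43.8 and 53.0 CPM (0.29, adjusted p = 0.0471, edgeR). It lost its call in 14 of 19 settings, among them those without DIO replicate 4 or 5 or DIO + DHA replicate 1, 2, 4 or 6 (adjusted p = 0.0543 to 0.153). Rxra, a partner of nuclear receptors such as Nr1h4 and among the listed regulators not called, was at 223 and 219 CPM (-0.03, adjusted p = 0.849, edgeR).

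Of 14 genes for scaffolds and trafficking of membrane transporters, all tested, 0 rose and 2 fell (median -0.03). The shares over all genes tested were 7.89% and 7.28%. Nherf1, a PDZ scaffold that binds exporters at the apical membrane, fell from 161 to 100 CPM, with 150 to 174 CPM in the DIO and 92.8 to 111 CPM in the DIO + DHA libraries (log2 fold change -0.69, adjusted p = 6.2e-10, edgeR). Msn, a membrane and actin linker that is abundant in endothelial and blood cells, was at 20.0 and 13.9 CPM (-0.44, adjusted p = 0.0498, edgeR). Its call was lost in 14 of 19 settings, among them those without DIO replicate 1 or 4 and without any single DIO + DHA library (adjusted p = 0.0501 to 0.239), and the lower endothelial and T cell marker sums moved with it, with a part that was not tested.

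The genes most like Abcb4 over the 8 libraries, among 6213 genes of at least 10 CPM on average, were Kif21a (Pearson's r = 0.981 on log2 CPM), Acsl1 (0.976), a long-chain acyl-CoA synthetase, and Atp1b1 (0.972), a subunit of the sodium pump. With the group means taken out, r was 0.848, 0.787 and 0.773. For Abcc2 they were Cfhr4 (0.976), Prlr (0.966), the prolactin receptor, and Tsc22d3 (0.958), a glucocorticoid-responsive gene, with 0.937, 0.920 and 0.871 once group means were taken out. These are descriptions over 8 libraries that fall into 2 groups and share their depth, and the genes were picked as the highest of many.

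**Figure D4:**
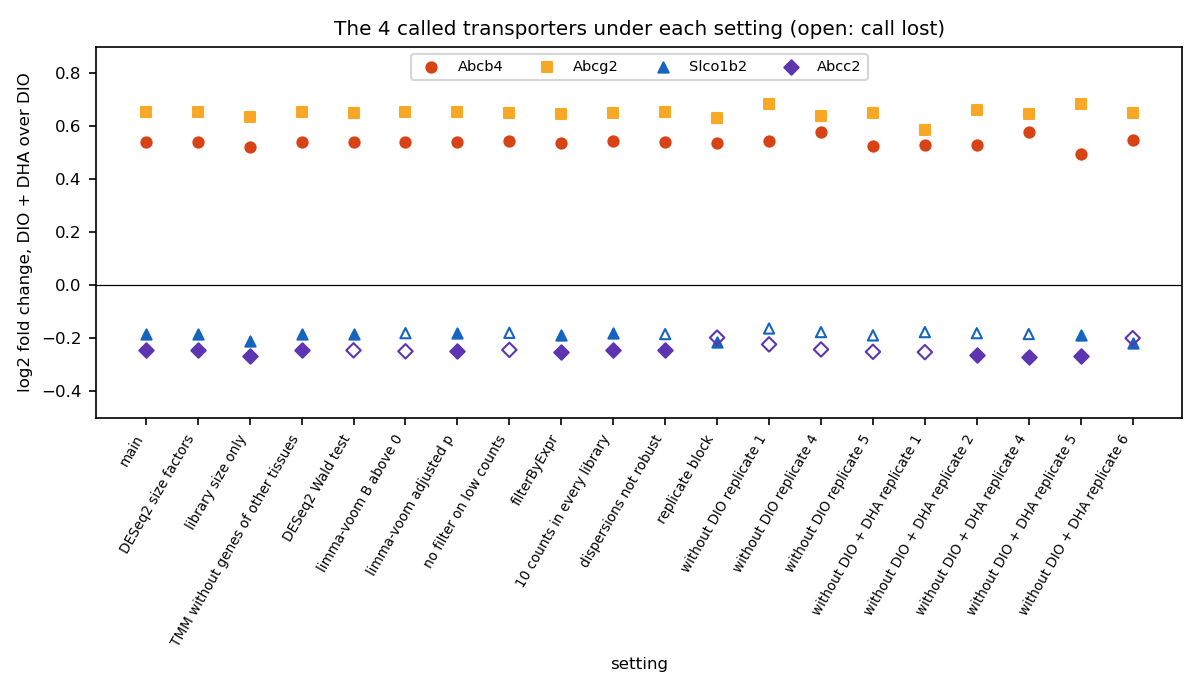
Log2 fold change of DIO + DHA over DIO of the 4 called transporters in the reported setting (main) and in 19 other settings, with open symbols where the call was lost. Abcb4 stayed between 0.50 and 0.58 and Abcg2 between 0.59 and 0.68 with every call kept, and Slco1b2 and Abcc2 stayed below 0 but each lost its call in 9 settings.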

How the data were processed

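Poly(A) RNA of 8 livers was made into 3′-enriched, barcoded cDNA (SCRB-seq). Per the labels and the paper's methods, the authors checked reads with FastQC 0.11.8, trimmed them, aligned them to GRCm39 with STAR 2.7.9a and used featureCounts 1.6.0 to count them on the exons of GENCODE release 33. The deposited files hold raw counts per gene, not normalized. No option for strand, multiple mapping or overlap stands in any of the 8 featureCounts commands. Whether molecular identifiers were collapsed is not given in the sources used here, so the reads may hold duplicates. Groups were taken from the sample titles. Each replicate is 1 mouse.

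Counts were joined by identifier and named by GENCODE release 39. Genes under 5 counts in over 50% of each group's libraries were left out. Counts were scaled by TMM and tested with edgeR 4.0.16 (quasi-likelihood, robust dispersions, R 4.3.3), with Benjamini-Hochberg adjustment over all 12412 genes at 0.05. The study's own limma-voom test (limma 3.58.1, B above 0) and DESeq2 1.42.0 were alternatives. For likeness, CPM were put on a log2 scale after adding a prior count of 2. The edgeR test was also run on simulated counts with known changes.

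The transporters and all lists were chosen with earlier results of these data known. Named genes are the 9 transporters and, from each other list, the called genes in order of p, at most 4 in each direction, and the gene with the largest mean CPM, plus the 3 genes most like Abcb4 and Abcc2. For 1 carrier of the other lists the result is not reported here. Columns of fold changes or p-values from the authors were not used. Protein sequences were not used here.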

Additional observations from a re-analysis of the deposited data

Results flagged for a closer look

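Among 9 transporters checked in the 5 DIO + DHA libraries, 2 had a library far from the others, both times DIO + DHA replicate 6. For Slco1b2 that library was the highest, at 807.8 CPM, with a gap to its nearest neighbour of 0.760 of the whole range. For Abcc2 it was the lowest, at 89.35 CPM, with a gap of 0.778 of the range. The critical value for 5 libraries is 0.71, and chance passes it in about 1 in 20 groups. The library held 4765003 counts, above the median of the series. Without it the log2 fold change was -0.22 for Slco1b2 and -0.20 for Abcc2, with adjusted p of 0.00900 and 0.0882 (edgeR's quasi-likelihood test).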

How the results depend on the processing

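Abcb4 and Abcg2 were called in each of the 19 other settings, and no transporter changed direction while called. Slco1b2 and Abcc2 kept a negative log2 fold change throughout, from -0.22 to -0.16 and from -0.27 to -0.20, and each lost its call in 9 settings. The 9 transporters held 0 lower calls under limma-voom with B above 0, where the whole table had 859 called genes, and 0 without the filter on low counts. There was 1 lower call in DESeq2's Wald test and 1 with dispersions that were not robust, and leaving out 1 library gave 0 to 2. The cause was not tested, except that the setting without a filter tests more genes and those that leave out a library hold fewer mice. Higher calls stayed at 2 in every setting. With a replicate block the table had 1539 called genes, with 2 transporters higher and 1 lower, Abcc2 losing its call (adjusted p = 0.183). Same-numbered libraries did not deviate together (correlations of -0.013, -0.013 and -0.011 for numbers 1, 4 and 5), so the numbers were not taken as pairs. In the other settings 1317 to 1895 genes were called. Slco1a1 could be tested in 17 and Slc22a7 in 18 of the 19 settings, since stricter filters removed them. With 1 to 12 and 4 to 27 counts a library, depth limits both.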

Other observations

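Nr1i2 (PXR), the xenobiotic receptor known to activate Slco1a4, and Esr1, the estrogen receptor, were also called lower among the regulators and are named after their values were seen. Nr1i2 was at 51.8 to 71.9 CPM in DIO and 43.0 to 46.6 CPM in DIO + DHA (log2 fold change -0.46, adjusted p = 0.00066, edgeR) and did not pass without DIO replicate 5 (adjusted p = 0.127). Esr1 was at 13.7 to 25.2 and 11.3 to 16.4 CPM (-0.50, adjusted p = 0.0376, edgeR), with overlapping groups, and did not pass without DIO replicate 1 or 5 or DIO + DHA replicate 1, 5 or 6 (adjusted p = 0.0718 to 0.224). Of 8 genes known mainly from kidney, 6 had 0 counts in all 8 libraries and 0 passed the filter on low counts. Libraries of the same group differed by more than sampling noise, with a chi-square per degree of freedom of 1.93 to 5.20 between pairs, against 8.81 to 20.2 between pairs of different groups.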
